A study of Homo sapiens with 24 samples.

Results

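DHRS2 (dehydrogenase/reductase 2, also called HEP27, ENSG00000100867.14) was followed as 1 of 59385 gene symbols in a table of read counts from 24 RNA-seq libraries. The gene was picked on the values of these same libraries, because it was high with wild-type and K3R SIRT6 and not clearly so with K3Q, so its differences between constructs are given as a description, with no test. Both established cell lines, A549 and H1299, derive from human non-small cell lung cancers, and all cells were stably transduced with a lentivirus. Each line carried FLAG-tagged wild-type SIRT6 (WT), the mutant K3R, the mutant K3Q or a FLAG-tagged empty vector (Ctr), so every group, Ctr included, went through transduction. SIRT6 is a deacylase that uses NAD to act on chromatin. By convention, arginine (R) in place of a lysine stands for its unacetylated form and glutamine (Q) for its acetylated form. The labels give neither the changed positions nor whether the transduced cells were pools or clones. Each of the 8 groups had 3 libraries, named here by biological replicate and batch. Library 1-1 is biological replicate 1 in batch 1, library 1-2 is biological replicate 1 in batch 2, and library 2-2 is biological replicate 2 in batch 2. Nothing in the labels says that 1-1 and 1-2 came from separate cultures, so part of the spread behind each p-value may be technical.

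DHRS2 belongs to the short-chain dehydrogenases/reductases, enzymes that pass hydride between NADPH or NADH and carbonyl or alcohol groups. Its protein reduces dicarbonyl compounds and is found in mitochondria. A processed form can enter the nucleus and bind MDM2, the ubiquitin ligase that marks p53 for degradation. The gene is also known to be induced by histone deacetylase inhibitors and to be a target of the transcription factor c-Myb.

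In GENCODE 29 on GRCh38, DHRS2 lies on chromosome 14, from 23630115 to 23645639 on the plus strand, with 5 exon blocks and no annotated gene overlapping it. The annotation gives 7556 bases of exon in all, against a median of 1107 bases for its coding transcripts. Reads of DHRS2 could be told apart from those of its relatives. Of 7876 different 50-base stretches in its transcripts, 9 (0.114%) also occurred in another gene, and 0 were shared with DHRS4. DHRS4, a relative farther along the chromosome, shared 48.0% of its stretches with other genes, mostly DHRS4L2.

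The promoter is shown as a description of the gene. Its part in the difference of DHRS2 between constructs was not tested. The RefSeq window, chr14:23629865-23630164 on the plus strand of GRCh38.p14, runs from 250 bases before the start to 50 bases after it. Capitals mark a TATAAA element.
DHRS2 promoter: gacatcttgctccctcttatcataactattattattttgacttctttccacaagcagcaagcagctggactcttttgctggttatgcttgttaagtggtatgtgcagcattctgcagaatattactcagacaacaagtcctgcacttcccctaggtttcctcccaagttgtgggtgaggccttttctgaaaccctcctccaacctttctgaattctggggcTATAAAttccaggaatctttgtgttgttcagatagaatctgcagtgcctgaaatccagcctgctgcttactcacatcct

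The window held 0 CpG dinucleotides, a count shared by 4.2% of 27305 human promoters of the same length, whose median was 14. Its GC content was 44.0%, against a median of 58.3%. TATAAA occurred once, on the plus strand, with its first base at position -29 from the start. That motif was present on either strand in 12% of promoters. An E-box, CANNTG, which reads alike on both strands, occurred once, at position -189, and 68.9% of promoters held one. CCAAT (35.7% of promoters), GGGCGG (44.6%), AACNG, the core of the motif bound by Myb proteins (77.1%), and TGACTCA (4.9%) were absent from these letters on both strands, and no motif searched overlapped another match. These are matches of letters and not measured binding.

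Depth ran from 16434492 to 19412274 gene counts per A549 library and from 14943189 to 22856407 per H1299 library. SIRT6, counted without separating the introduced from the cells' own copy, stood at 1440 to 3420 CPM (counts per 1000000 of the library total after TMM scaling over all 24 libraries) with the constructs in A549, against 23.5 to 33.1 CPM in Ctr. In H1299 it stood at 2350 to 14500 CPM with the constructs, against 32.8 to 43.0 CPM in Ctr. SIRT6 passed in all 6 comparisons against Ctr. CDKN2A, deleted in A549, had 0 to 24 counts in the A549 libraries and 1795 to 2960 in H1299. Within A549, libraries 1-1, 1-2 and 2-2 had 13, 14 and 0 counts in WT and 1, 0 and 0 in K3R. They had 17, 9 and 11 in K3Q and 24, 0 and 0 in Ctr. The source of these reads was not tested. Summed epithelial markers (KRT8, KRT18, KRT19, EPCAM, CDH1 and KRT7) reached 7780 to 15100 CPM in A549 and 621 to 1070 CPM in H1299, where KRT19 was at 0 in a K3Q library. Leukocyte markers summed to 8.19 CPM or less, with PTPRC and CD3E at 0 in libraries of both lines. Fibroblast markers (COL1A1, COL1A2, DCN, LUM and PDGFRB) summed to 16.4 to 21.5 CPM in A549 WT, 14.8 to 22.9 in K3R, 7.28 to 12.5 in K3Q and 9.65 to 17.8 in Ctr. In H1299 they summed to 4.92 to 10.1 CPM in WT, 3.41 to 6.09 in K3R, 2.04 to 4.81 in K3Q and 1.76 to 5.51 in Ctr. COL1A2 and DCN were at 0 in libraries of A549, and LUM in libraries of H1299. Endothelial markers summed to 1.7 CPM or less. Neuroendocrine markers summed to 12.4 to 17.7 CPM with the constructs in A549, against 7.13 to 11.3 CPM in Ctr, and to 9.29 to 15.9 CPM in all groups of H1299. The part of these markers in the DHRS2 values was not tested. In A549 K3Q, libraries 1-2 and 2-2 were nearly alike. A chi-square test of this pair gave 2.49 per degree of freedom, while the remaining 23 pairs within groups gave 14.4 to 63.6. As 2.49 exceeds counting noise, both were kept.

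In A549, DHRS2 was several times more abundant with WT and K3R than with K3Q or Ctr. WT libraries 1-1, 1-2 and 2-2 held 515, 865 and 593 DHRS2 counts, which were 30.9, 55.0 and 34.7 CPM. The K3R libraries held 528, 938 and 588 counts, or 32.2, 56.7 and 37.5 CPM. The K3Q libraries held 241, 222 and 222 counts, or 13.1, 13.6 and 13.8 CPM, and the Ctr libraries 173, 197 and 181 counts, or 9.90, 12.6 and 10.8 CPM. WT and K3R overlapped each other throughout and lay above every K3Q and Ctr library. K3Q lay above Ctr by a narrow margin, its lowest library at 13.1 CPM and the highest Ctr library at 12.6 CPM, with 95% counting intervals of 11.5 to 14.9 and 10.9 to 14.5 CPM that overlapped.

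The same split appeared in H1299, with more spread. WT libraries 1-1, 1-2 and 2-2 held 869, 1049 and 1140 DHRS2 counts, or 37.4, 55.5 and 62.7 CPM. The K3R libraries held 864, 1096 and 482 counts, or 37.0, 52.6 and 27.8 CPM. The K3Q libraries held 304, 221 and 111 counts, or 14.1, 15 and 5.71 CPM, and the Ctr libraries 319, 55 and 57 counts, or 13.6, 3.10 and 3.05 CPM. All WT and K3R libraries lay above all K3Q and Ctr libraries, and K3Q overlapped Ctr. Ctr library 1-1 stood apart from the other H1299 Ctr libraries, at 4.4 times the level of 1-2, while its SIRT6 was 43.0 CPM, against 32.8 and 36.1 CPM in Ctr 1-2 and 2-2. K3Q library 2-2 was the low one of its group.

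**Figure D1:**
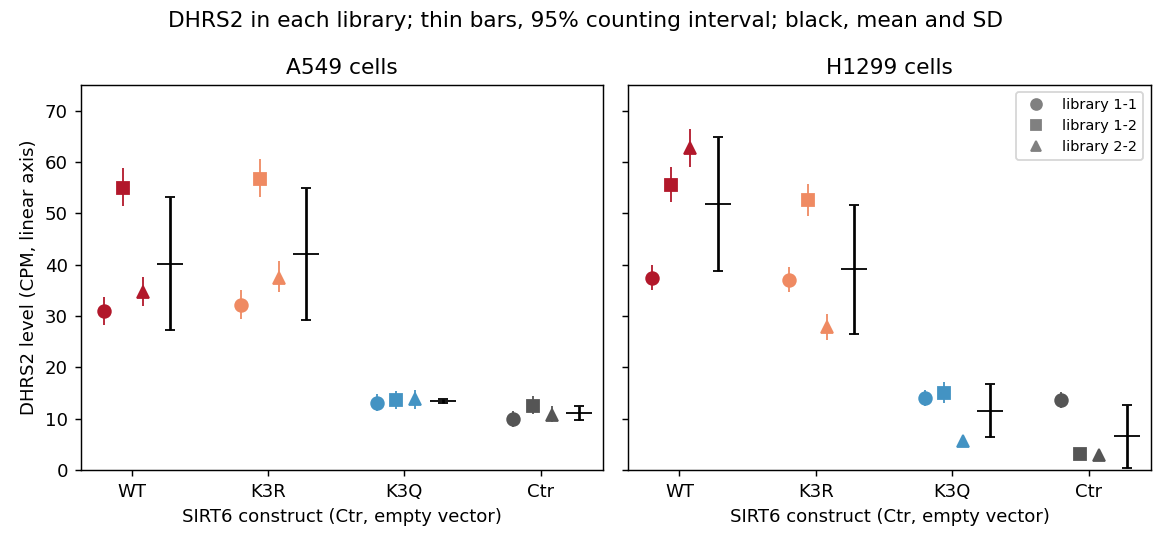
DHRS2 level in CPM on a linear axis, 1 point per library, for A549 (left) and H1299 (right) under WT, K3R, K3Q and Ctr, with 95% Poisson counting intervals as thin bars and the group mean and SD (n = 3) in black. WT and K3R libraries sit between 27.8 and 62.7 CPM, and all K3Q and Ctr libraries at 15 CPM or less.

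Ordered by group mean, the levels fell into an upper and a lower block. The upper block held H1299 WT at 51.9 ± 13.0 CPM, A549 K3R at 42.1 ± 12.9, A549 WT at 40.2 ± 12.9 and H1299 K3R at 39.2 ± 12.5 (mean ± SD, n = 3 each). The lower block held A549 K3Q at 13.5 ± 0.338 CPM, H1299 K3Q at 11.6 ± 5.11, A549 Ctr at 11.1 ± 1.38 and H1299 Ctr at 6.59 ± 6.10. Since A549 K3Q libraries 1-2 and 2-2 were nearly alike, the small SD of that group may understate the spread between independent libraries. Within each block every group overlapped its neighbour in the order. Between the blocks, the mean of H1299 K3R was 2.9 times that of A549 K3Q, and their libraries did not overlap. Counting error spanned 5.85% to 27.4% of the DHRS2 count per library in H1299 and 6.45% to 15.2% in A549, as the half-width of the 95% Poisson interval. These intervals cover counting error only. The SD of log2 CPM within a group was 0.04 to 0.44 in A549 and 0.39 to 1.24 in H1299, with the largest in H1299 Ctr.

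The fitted log2 changes describe the same pattern, on the contrasts that chose the gene. In A549 they were 1.84 ± 0.21 (SE) for WT against Ctr, 1.91 ± 0.21 for K3R and 0.29 ± 0.21 for K3Q. By matched library, 1-1, 1-2 and 2-2, DHRS2 was 3.12, 4.35 and 3.20 times as high in WT as in Ctr, 3.25, 4.49 and 3.46 times in K3R, and 1.33, 1.08 and 1.27 times in K3Q. K3Q was at -1.56 ± 0.21 against WT and at -1.62 ± 0.21 against K3R, lower in 3 of 3 matched libraries in both. Over all genes, K3Q 2-2 correlated with the other A549 libraries of its number at only 0.0569 to 0.119. The matched values of K3Q 2-2 are thus weakly paired. K3R against WT was 0.07 ± 0.20, with an interval of -0.32 to 0.45. The genes that passed in A549 (edgeR quasi-likelihood test, Benjamini-Hochberg, adjusted p under 0.05) were 0.105% of 16120 tested for WT against Ctr, 0.118% for K3R against Ctr, 0.0248% for K3Q against Ctr and 0.0062% for K3Q against WT.

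In H1299 the log2 changes of DHRS2 were 3.10 ± 0.50 for WT against Ctr, 2.65 ± 0.49 for K3R and 0.86 ± 0.49 for K3Q. These sizes rest on which Ctr libraries are used. Matched by library 1-1, 1-2 and 2-2, DHRS2 was 2.74, 17.9 and 20.6 times as high in WT as in Ctr, 2.72, 17.0 and 9.12 times in K3R, and 1.03, 4.84 and 1.87 times in K3Q. Without Ctr library 1-1 the log2 changes were 4.11, 3.69 and 1.95 for WT, K3R and K3Q. Without the libraries of biological replicate 2 they were 2.39, 2.33 and 0.73. K3Q was at -2.24 ± 0.47 against WT and at -1.80 ± 0.47 against K3R, lower in 3 of 3 matched libraries in both. K3R against WT was -0.45 ± 0.44, with an interval of -1.30 to 0.41. Genes passing in H1299 were 4.05% of 16262 tested for WT against Ctr, 3.25% for K3R against Ctr, 0.0615% for K3Q against Ctr and 3.46% for K3Q against WT. Libraries of the same number moved together in H1299. Blocking on that number gave 1585 passing genes in place of 659 for WT, 1392 in place of 528 for K3R, 136 in place of 10 for K3Q, and 1946 in place of 563 for K3Q against WT. With the block, 9.75%, 8.56% and 0.836% of the 16262 genes thus passed for WT, K3R and K3Q against Ctr, and 12% for K3Q against WT.

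The levels of SIRT6 transcript and of DHRS2 were set side by side in each library. In A549, SIRT6 stood at 1440, 2640 and 2980 CPM in WT libraries 1-1, 1-2 and 2-2, at 1450, 2370 and 3420 CPM in K3R and at 1560, 1790 and 1670 CPM in K3Q. SIRT6 in K3Q was thus above WT and K3R in 1-1 and below both in 1-2 and 2-2, while DHRS2 in K3Q was below both in all 3. In H1299 SIRT6 and DHRS2 differed in order. The K3Q libraries held the most SIRT6, at 14500, 10600 and 13700 CPM, against 2600, 2350 and 6280 CPM in WT and 4020, 2630 and 5660 CPM in K3R. SIRT6 was 3.43 times as high in K3Q as in WT there (log2 1.78 ± 0.35, edgeR adjusted p = 0.0183), higher in 3 of 3 matched libraries, whereas every H1299 K3Q library lay below every WT library in DHRS2. The transcript counts say nothing of SIRT6 protein.

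**Figure D2:**
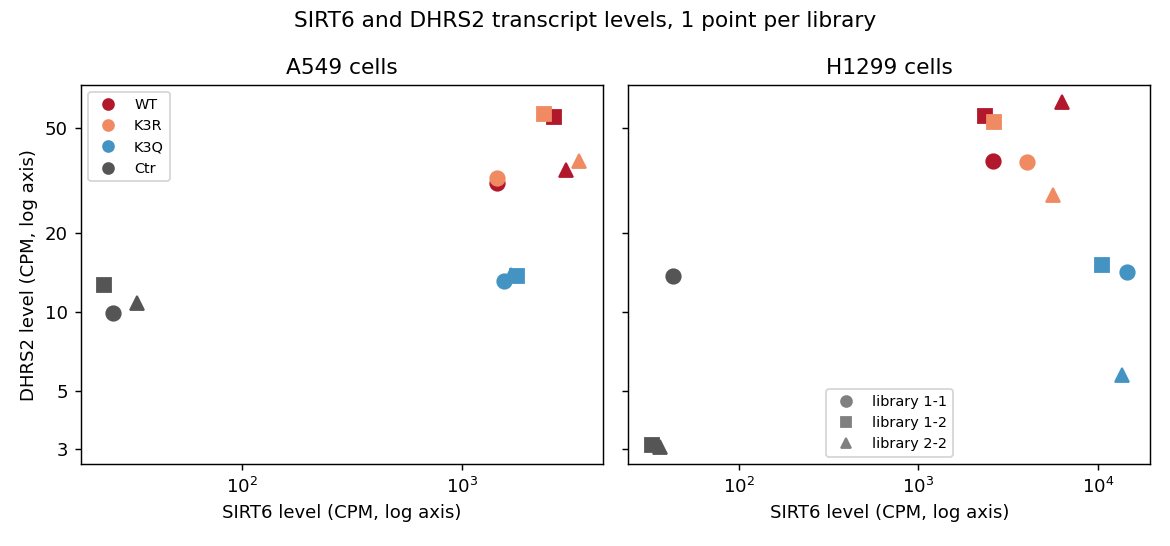
SIRT6 against DHRS2 level in CPM, both on log axes, 1 point per library, for A549 (left) and H1299 (right); colours mark WT, K3R, K3Q and Ctr, and shapes the library. K3Q libraries of H1299 lie farthest right, at 10600 to 14500 CPM of SIRT6, and at 5.71 to 15 CPM of DHRS2.

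The choice of the gene used no difference between lines, batches or biological replicates, so DHRS2 was tested there. The line test is run on the Ctr libraries that the contrasts behind the choice also used, so it is not fully independent of that choice. In cells with the empty vector DHRS2 was not shown to differ between the lines. A549 Ctr averaged 11.1 ± 1.38 CPM and H1299 Ctr 6.59 ± 6.10 CPM (SD, n = 3 each), a log2 difference of 1.14 ± 0.48 with an edgeR adjusted p of 0.0681, where 57.0% of genes passed. A549 was higher in 2 of 3 pairs matched by number. Without H1299 Ctr 1-1 the difference was 1.96 (adjusted p = 0.00223), and without A549 Ctr 1-1 it was 1.93 (adjusted p = 0.00177). Adjusted p ran from 0.000562 to 0.283 over all alternatives.

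In the batch and replicate tests of both lines, the 4 construct pairs share the same step. Their p thus measures the spread between constructs, not whether a difference would repeat in another batch or replicate. DHRS2 differed between the batches in A549 in that sense. Over the 8 libraries of biological replicate 1, batch 2 (1-2) was higher than batch 1 (1-1) by 0.59 ± 0.11 on the log2 scale (edgeR adjusted p = 0.00111), higher in 4 of 4 constructs, and 41.0% of genes passed. DHRS2 in library 1-2 was 1.78 times its level in 1-1 for WT, 1.76 times for K3R, 1.04 times for K3Q and 1.27 times for Ctr. Within batch 2, biological replicate 2 (2-2) against replicate 1 (1-2) was at -0.39 ± 0.13 (adjusted p = 0.0925), with 0.00663% of genes passing. Library 2-2 was at 0.631 of 1-2 for WT, 0.662 for K3R, 1.01 for K3Q and 0.859 for Ctr. Without the K3Q pair that difference was -0.53 (adjusted p = 0.00363), a setting in which 5500 genes passed, against 1 with all pairs.

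In H1299 the batch difference was 0.04 ± 0.23 (edgeR adjusted p = 0.936), with 22.3% of genes passing, and it joined opposite values. Library 1-2 had 1.49 times the DHRS2 of 1-1 for WT, 1.42 times for K3R and 1.07 times for K3Q, and 0.227 times for Ctr. Without the Ctr pair it was 0.43 (adjusted p = 0.000541), without the WT pair -0.22 and without the K3R pair -0.21. Biological replicate 2 against replicate 1 was at -0.52 ± 0.21 (adjusted p = 0.123), with 12.4% of genes passing. Library 2-2 was at 1.13 of 1-2 for WT, 0.529 for K3R, 0.381 for K3Q and 0.985 for Ctr. Without the WT pair the difference was -0.85 (adjusted p = 0.0108). Within batch 2 alone, the log2 changes of DHRS2 against Ctr were 4.27 for WT, 3.69 for K3R and 1.73 for K3Q.

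Per length, DHRS2 was among the more abundant of the 15 genes of its group (the DHRS-named genes and BDH2, also called DHRS6) where it was high. Per kilobase of annotated exon it stood at 5.32 CPM in A549 WT, rank 5 of 15, with DHRS3, a retinal reductase, highest at 14.6. It stood at 5.58 in A549 K3R (rank 5), 1.79 in K3Q (rank 8) and 1.47 in Ctr (rank 10). In H1299 WT it was highest of the 15, at 6.86 CPM per kilobase, with 5.18 in K3R (rank 2), 1.53 in K3Q (rank 6) and 0.872 in Ctr (rank 10). Per kilobase of the median coding transcript, a length chosen after seeing the data, the values were 36.3 in A549 WT (rank 3 of 14 genes with such a transcript), 10.0 in A549 Ctr (rank 7), 46.9 in H1299 WT (rank 1) and 5.96 in H1299 Ctr (rank 5).

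Among the other 14 genes of that group, DHRS3 passed in H1299 and no gene passed in A549. DHRS3 stood at 8.65, 9.42 and 12.6 CPM in the H1299 WT libraries 1-1, 1-2 and 2-2, at 8.70, 7.63 and 8.37 CPM in K3R, at 3.33, 2.65 and 2.01 CPM in K3Q and at 4.49, 2.08 and 2.73 CPM in Ctr. All WT and K3R libraries lay above all K3Q and Ctr libraries. The gene rose by 1.76 ± 0.26 on the log2 scale in WT (edgeR adjusted p = 0.00396) and by 1.42 ± 0.26 in K3R (adjusted p = 0.0114), higher in 3 of 3 matched libraries in both. The K3R call was lost in 3 of 14 alternatives, without K3R library 1-1 (adjusted p = 0.0522), with batch 2 alone (0.0685) and with the libraries of biological replicate 1 summed (0.0819), and the WT call in 0. K3Q was at -0.22 against Ctr (adjusted p = 0.825), and it was lower than in WT, at -1.98 ± 0.26 (adjusted p = 0.00357). In A549, where DHRS3 averaged 41.4 to 58.8 CPM, its log2 changes were -0.34, -0.44 and 0.06 for WT, K3R and K3Q (adjusted p = 0.879 or more), and the difference between the lines was not tested.

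No other gene of the group passed against Ctr. Over the 11 genes tested in A549 and 10 in H1299, the median log2 changes were -0.04, -0.18 and 0.06 in A549 and -0.10, -0.09 and -0.07 in H1299 for WT, K3R and K3Q, against medians over all genes of 0.00 and -0.01. DHRS4L1, DHRS7C and DHRSX had at most 8 counts in a library and were not tested, and DHRS9 was tested in A549 alone. In A549, 2 of the 11 genes had an unadjusted edgeR p under 0.05 in each comparison against Ctr, where 7.93%, 6.92% and 8.62% of all tested genes did for WT, K3R and K3Q. In H1299, 4, 1 and 0 of the 10 did, where 17.5%, 17.6% and 9.72% of all genes did. DESeq2 called 0 of the group in A549, where it called 1.1%, 1.0% and 0.955% of all genes, and 1, 1 and 0 in H1299, where it called 6.5%, 5.66% and 0.896%. The counts at these rules in the lists that follow are to be read against the same shares, and those with the block against the shares given above for the block. DHRS9, a retinol dehydrogenase, had the highest values beside DHRS2 in A549, 1.22 with WT and 1.39 with K3R, at an adjusted p of 0.616 and 0.604. With the replicate block, DHRS11 also passed in H1299 WT, at -0.62.

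**Figure D3:**
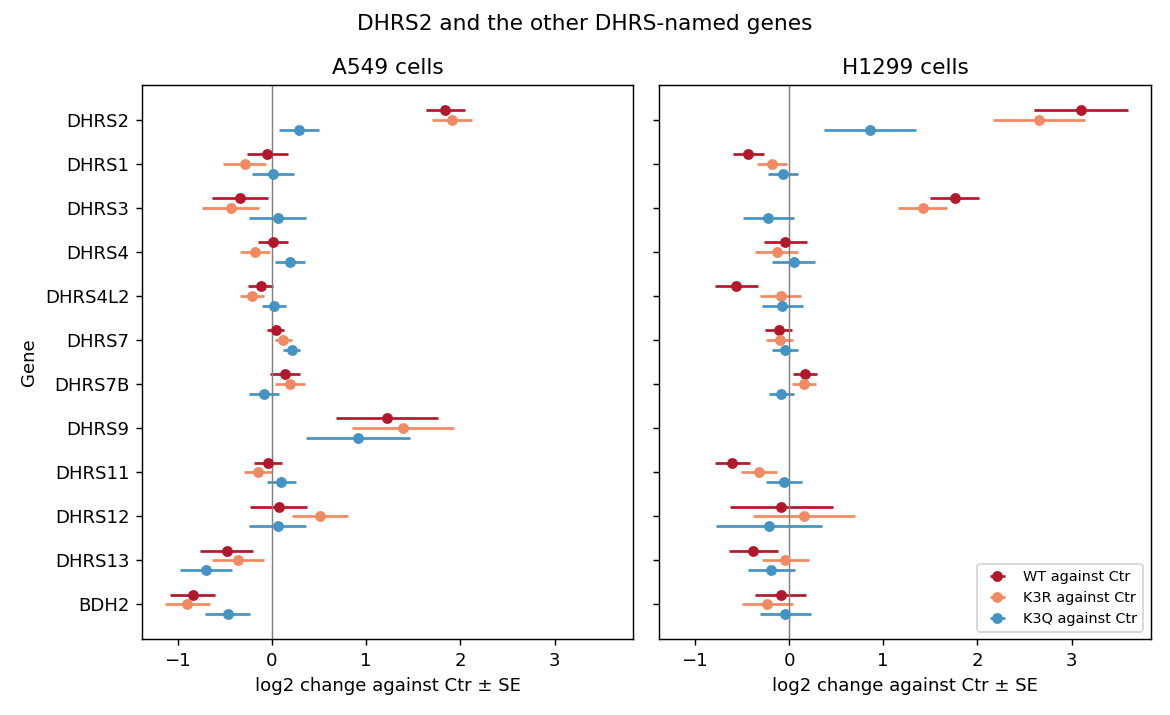
Log2 change against Ctr ± SE for DHRS2 and the 11 other genes of the DHRS group tested in A549 (left) or H1299 (right), with WT, K3R and K3Q in separate colours. DHRS2 lies at 1.84 and 1.91 for WT and K3R in A549 and at 3.10 and 2.65 in H1299, and DHRS3 at 1.76 and 1.42 in H1299 and at -0.34 and -0.44 in A549.

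Of 51 further short-chain dehydrogenases, 41 were tested in A549, where 0 passed, and 40 in H1299. In A549, 4, 3 and 5 of the 41 had an unadjusted edgeR p under 0.05 for WT, K3R and K3Q, beside 7.93%, 6.92% and 8.62% of all genes, and DESeq2 called 0. In H1299, 9, 12 and 6 of the 40 had such a p, beside 17.5%, 17.6% and 9.72% of all genes. DESeq2 called 3, 3 and 1 there, beside 6.5%, 5.66% and 0.896%. Of the 40, BDH1 and CBR3 rose in H1299 with WT, where 4.05% of all genes passed, and BDH1 with K3R, where 3.25% did. BDH1, the mitochondrial enzyme that interconverts the ketone bodies acetoacetate and 3-hydroxybutyrate, stood at 4.22, 2.49 and 3.24 CPM in WT, 4.33, 3.26 and 3.29 CPM in K3R, 3.05, 1.97 and 1.90 CPM in K3Q and 2.31, 1.41 and 0.963 CPM in Ctr. Its log2 changes were 1.11 ± 0.24 in WT (adjusted p = 0.0222) and 1.24 ± 0.24 in K3R (adjusted p = 0.0143). The WT call was lost in 8 of 14 alternatives and the K3R call in 6. Both were lost without a batch term, with batch 2 alone and with biological replicate 1 summed (adjusted p = 0.112, 0.162 and 0.209 for WT and 0.0846, 0.151 and 0.195 for K3R). The WT call was also lost without WT 1-1, WT 2-2, Ctr 1-2 or Ctr 2-2 (adjusted p = 0.0569 to 0.09) and without biological replicate 2 (0.0516), and the K3R call without K3R 1-1, K3R 2-2 or Ctr 2-2 (0.0534 to 0.0591).

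CBR3, a carbonyl reductase that also belongs to the list of carbonyl and dicarbonyl detoxification, rose by 1.16 ± 0.30 in H1299 WT (edgeR adjusted p = 0.0493), at 2.84, 2.86 and 5.22 CPM against 2.18, 1.35 and 1.39 CPM in Ctr. That call was lost in 10 of 14 alternatives. They were WT 1-2, WT 2-2 or any 1 of the Ctr libraries left out (adjusted p = 0.0509 to 0.211), no batch term (0.0646), RLE scaling (0.0502), batch 2 alone (0.115), biological replicate 1 summed (0.168) and biological replicate 2 left out (0.154). Without the block, CBR3 was the only one of 14 detoxification genes to pass against Ctr in H1299, and 0 of 15 passed in A549. With the block, CBR1 also passed for WT (-0.37) and CBR3 for K3R (0.97), and for K3Q against WT, where 0 passed without it, AKR1C1 (-1.19) and CBR1 (0.41) passed. The medians of the 14 were 0.13, 0.21 and 0.08 for WT, K3R and K3Q. With the block, 5 of the 40 short-chain dehydrogenases passed for WT (3 higher and 2 lower), 6 for K3R, all higher, and GFUS for K3Q (0.42), where 9.75%, 8.56% and 0.836% of all genes passed. For K3Q against WT in H1299, GFUS, HSD17B8 and RDH13 were higher (log2 0.58, 0.76 and 0.63, with adjusted p of 0.00539, 0.0452 and 0.0357), and they are named, after their values were seen, because they were the only 3. With the block 7 passed, 5 higher and 2 lower, beside 12% of all genes.

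The MDM2-p53 axis, on which the DHRS2 protein is known to act, held no gene that passed against Ctr. At an unadjusted edgeR p under 0.05 there were 3, 2 and 4 of 28 genes in A549, beside 7.93%, 6.92% and 8.62% of all genes, and 5, 2 and 2 of 25 in H1299, beside 17.5%, 17.6% and 9.72%, for WT, K3R and K3Q. DESeq2 called 1, in H1299 WT, where it called 6.5% of all genes. The medians were -0.23, -0.21 and -0.22 in A549 and 0.08, 0.03 and 0.03 in H1299 for WT, K3R and K3Q. The lowest p values belonged to FDXR, a mitochondrial ferredoxin reductase and p53 target, at 0.52 ± 0.16 in H1299 WT (edgeR adjusted p = 0.0941), and to ZMAT3, a p53-induced RNA-binding protein, at -0.52 ± 0.15 in A549 WT (adjusted p = 0.324). With the block, FDXR passed at 0.53 (adjusted p = 0.0424), with POLH at 0.30. For K3Q against WT in H1299, 0 genes passed without the block and 4 of 25 with it, beside 12% of all genes, BBC3 at 0.83, TP53INP1 at -0.54, SESN1 at -0.52 and RRM2B at -0.34. MDM2 averaged 83.3 ± 15.9 CPM in A549 WT and 111 ± 42.8 CPM in A549 Ctr, and 58.8 ± 8.52 CPM in H1299 WT and 55.5 ± 12.3 CPM in H1299 Ctr (SD, n = 3 each), groups whose libraries overlapped. In A549 Ctr libraries 1-1, 1-2 and 2-2, MDM2 stood at 74.5, 101 and 158 CPM and CDKN1A at 185, 158 and 680 CPM. ZMAT3 was instead highest in 1-1, at 29.1 CPM. The part of Ctr 2-2 in the A549 medians was not tested.

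MYB, which encodes c-Myb, was scarce, at 0.36 to 2.86 CPM over all libraries. None of the 3 Myb genes passed against Ctr in either line. At an unadjusted edgeR p under 0.05 there was 1 in A549 K3Q and 1 in H1299 K3Q, and DESeq2 called 0 against Ctr. MYB was at 0.72 ± 0.47 in A549 K3R (edgeR adjusted p = 0.901), and MYBL1 at -0.40 ± 0.12 in H1299 K3Q (adjusted p = 0.338). MYBL1 was lower in H1299 K3Q than in WT, at -0.51 ± 0.12 (adjusted p = 0.0372), and with the block MYBL2 was higher, at 0.28.

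None of the 11 histone deacetylase genes passed against Ctr. At an unadjusted edgeR p under 0.05 there were 0, 1 and 0 genes in A549, beside 7.93%, 6.92% and 8.62% of all genes, and 4, 2 and 1 in H1299, beside 17.5%, 17.6% and 9.72%, for WT, K3R and K3Q. DESeq2 called 2 in H1299 WT and 1 in H1299 K3R, beside 6.5% and 5.66% of all genes. HDAC6 was at 0.46 ± 0.12 in H1299 WT (edgeR adjusted p = 0.0553) and HDAC1 at 0.37 ± 0.10 in H1299 K3R (adjusted p = 0.0612). With the block both passed, at 0.46 (adjusted p = 0.00901) and 0.37 (adjusted p = 0.00654), and HDAC9 was lower in WT and K3R, at -0.45 and -0.35. Of 10 genes classically raised by deacetylase inhibitors, a class to which DHRS2 itself belongs, 0 of 10 tested passed in A549. In H1299, 2 of 8 passed with WT and with K3R, where 4.05% and 3.25% of all genes passed, and 0 with K3Q. In A549, 2, 2 and 3 of the 10 had an unadjusted edgeR p under 0.05 for WT, K3R and K3Q, beside 7.93%, 6.92% and 8.62% of all genes, and DESeq2 called 1, 1 and 2, beside 1.1%, 1.0% and 0.955%. In H1299, 3, 4 and 2 of the 8 had such a p, beside 17.5%, 17.6% and 9.72% of all genes. DESeq2 called 2, 2 and 0 there, beside 6.5%, 5.66% and 0.896%. GSN, the actin-severing protein gelsolin, stood at 230, 181 and 281 CPM in H1299 WT, 227, 184 and 273 CPM in K3R, 198, 188 and 140 CPM in K3Q and 148, 106 and 116 CPM in Ctr. GSN rose by 0.92 ± 0.19 in WT (adjusted p = 0.0185) and 0.89 ± 0.19 in K3R (adjusted p = 0.024).

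CLU, the extracellular chaperone clusterin, stood at 54.7, 52.3 and 116 CPM in H1299 WT, 64.2, 43.6 and 101 CPM in K3R, 35.7, 35.5 and 28.4 CPM in K3Q and 30.6, 23.3 and 26.7 CPM in Ctr. CLU rose by 1.46 ± 0.32 in WT (edgeR adjusted p = 0.0251) and by 1.36 ± 0.32 in K3R (adjusted p = 0.0379). The WT calls of GSN and CLU were lost without WT 2-2, Ctr 1-2 or Ctr 2-2 (adjusted p = 0.0679 to 0.0944). The K3R calls were lost without K3R 1-1, K3R 2-2, Ctr 1-2 or Ctr 2-2 (adjusted p = 0.0761 to 0.166), and that of CLU also without Ctr 1-1 (adjusted p = 0.0615). All 4 calls were also lost with batch 2 alone (adjusted p = 0.111 to 0.207) and with biological replicate 1 summed (0.0836 to 0.123). With the block, 4 of the 8 rose in H1299 WT and 3 in K3R, KLF2 in both (0.47 and 0.65), where 9.75% and 8.56% of all genes passed in either direction. The medians of this list were -0.09, -0.06 and -0.36 in A549 and 0.27, 0.25 and 0.17 in H1299 for WT, K3R and K3Q.

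Among the marker lists, EPCAM rose in A549 K3R by 1.46 ± 0.23 (edgeR adjusted p = 0.0485), a call lost without K3R 1-1, K3R 1-2 or any 1 of the Ctr libraries (adjusted p = 0.126 to 0.234), without a batch term, with batch 2 alone and with biological replicate 1 summed (0.655 to 1.0). VWF, with 9 to 19 counts per H1299 WT library against 0 to 2 per Ctr library, rose by 3.52 ± 0.74 (adjusted p = 0.0199). It was lost without WT 2-2, Ctr 1-2 or Ctr 2-2 (adjusted p = 0.0839 to 0.0939), with batch 2 alone (0.0953) and with biological replicate 1 summed (0.102). COL1A1 was at 1.51 ± 0.41 in H1299 WT (adjusted p = 0.0575), and with the block it passed at 1.41 (adjusted p = 0.0216). In A549 WT, CHGA was at 1.42 ± 0.39 (adjusted p = 0.272) and SCG2 at 0.96 ± 0.30 (adjusted p = 0.371). CD14 in A549 WT did not pass (-0.42, adjusted p = 0.908). Of the other 6 sirtuins, none passed in any comparison against Ctr.

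Around DHRS2 no protein-coding neighbour passed against Ctr. At an unadjusted edgeR p under 0.05 there were 0, 1 and 0 in A549, beside 7.93%, 6.92% and 8.62% of all genes, and 3, 3 and 2 in H1299, beside 17.5%, 17.6% and 9.72%, for WT, K3R and K3Q. DESeq2 called 1, in H1299 K3R, where it called 5.66% of all genes. Of 26 other protein-coding genes whose start lies within 500 kb, 25 were in the table, and 16 were tested in A549 and 15 in H1299. Their median log2 changes were -0.08, -0.06 and -0.06 in A549 and -0.11, -0.09 and 0.05 in H1299 for WT, K3R and K3Q. The nearest gene upstream, JPH4, which encodes a junctophilin, had at most 13 counts in a library and was not tested. AP1G2, an adaptor subunit of vesicle coats, was at 0.78 ± 0.30 in H1299 WT (edgeR adjusted p = 0.193), and ZFHX2, a zinc finger homeobox gene, at -0.31 ± 0.25 in H1299 K3Q (adjusted p = 0.715). With the block, AP1G2 passed in H1299 WT at 0.80 (adjusted p = 0.00954), as did SLC22A17 at 1.08, and DCAF11 passed in K3R at 0.45, which are 2 and 1 of 15 neighbours beside 9.75% and 8.56% of all genes.

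Downstream, DHRS4 starts 323471 bases from DHRS2. DHRS4, a peroxisomal carbonyl reductase, stood at 21.3, 19.6 and 16.0 CPM in A549 WT, 24.7, 15 and 12 CPM in K3R, 24.4, 20 and 20.7 CPM in K3Q and 24.9, 17.2 and 15.6 CPM in Ctr. In H1299 it averaged 3.27 ± 1.30 CPM in WT, 3.13 ± 1.46 in K3R, 3.58 ± 1.87 in K3Q and 3.28 ± 0.697 in Ctr (SD, n = 3 each). The groups overlapped in both lines, and the lowest adjusted p of the 6 comparisons was 0.723, at 0.19 ± 0.16 in A549 K3Q. DHRS4L2 was at -0.56 ± 0.23 in H1299 WT (adjusted p = 0.215), and DHRS4-AS1, antisense to DHRS4, at -0.60 ± 0.23 in H1299 K3R (adjusted p = 0.196). These copies share stretches with one another, and the strand setting of the counting is not given, so their reads may be exchanged. CARMIL3, a regulator of actin capping, was at 0.79 ± 0.40 in A549 K3R (adjusted p = 0.799).

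**Figure D4:**
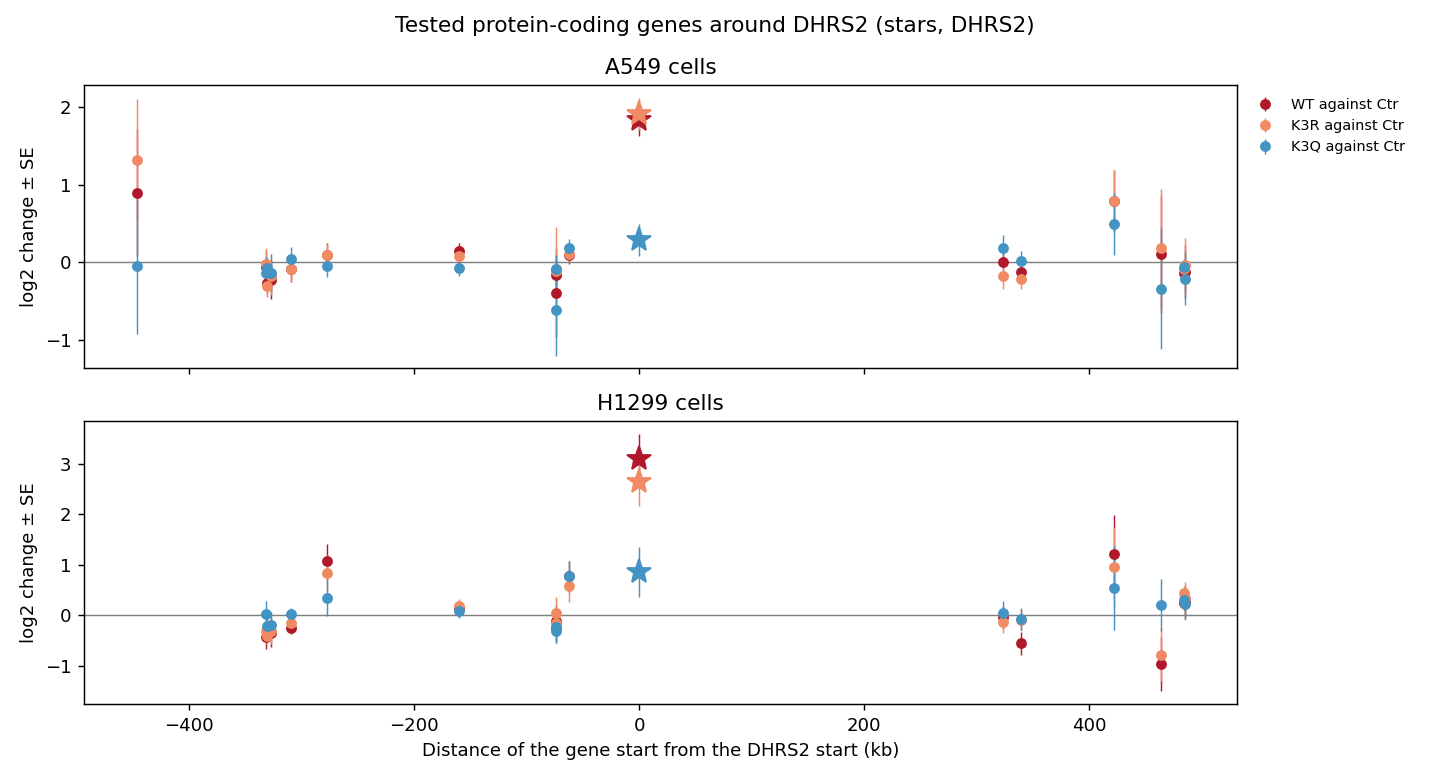
Log2 change against Ctr ± SE for DHRS2 (stars) and its tested protein-coding neighbours (points) by distance of the gene start from the DHRS2 start in kb, in A549 (top) and H1299 (bottom). The medians of the neighbours lie between -0.11 and 0.05, while DHRS2 lies at 1.84 and 3.10 for WT in A549 and H1299.

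Genes were ranked by their correlation with DHRS2 over the libraries of a line. Likeness was Pearson's r of log2 CPM over the 12 libraries of a line, for 11374 genes with a mean log2 CPM of at least 1 in both lines. It is a description that supports nothing further, since the libraries share constructs, batches and replicates and DHRS2 was picked on the constructs. The minimum is a mean over a line, so a gene that is high in WT and K3R alone can meet it, as L1CAM in H1299, with means of 13.9 and 10.3 CPM in WT and K3R and 1.70 CPM in K3Q, against 0.403 CPM in Ctr. The median r was 0.01 in A549 and 0.00 in H1299, and 5.34% and 13.5% of the 11374 genes had an r above 0.5 in A549 and H1299. The 8 genes with the highest lower r of both lines were L1CAM (0.84 in A549 and 0.87 in H1299), KIF1A (0.87 and 0.81), CRABP2 (0.79 and 0.84), NXPH4 (0.77 and 0.78), GCH1 (0.76 and 0.78), PDZD4 (0.90 and 0.75), COL12A1 (0.82 and 0.75) and PPL (0.75 and 0.86). L1CAM is a neural adhesion molecule, KIF1A a kinesin motor of synaptic vesicle transport, and CRABP2 a carrier of retinoic acid. GCH1 makes the first step of tetrahydrobiopterin synthesis, COL12A1 a fibril-associated collagen, and PPL the desmosomal protein periplakin.

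L1CAM stood at 43.5, 63.9 and 46.6 CPM in A549 WT, 40.7, 51.3 and 41.9 CPM in K3R, 25.6, 33.2 and 32.4 CPM in K3Q and 19.7, 14.2 and 9.65 CPM in Ctr. In H1299 it stood at 10.2, 6.99 and 24.5 CPM in WT, 9.86, 4.32 and 16.6 CPM in K3R, 1.48, 0.882 and 2.73 CPM in K3Q and 0.940, 0.0563 and 0.214 CPM in Ctr. As with DHRS2, Ctr library 1-1 held the highest L1CAM of the H1299 Ctr libraries, and every WT and K3R library lay above every K3Q and Ctr library in both lines. Within a construct the order differed: of the H1299 K3R libraries, 2-2 was the lowest in DHRS2, at 27.8 CPM, and the highest in L1CAM, at 16.6 CPM, and in CRABP2, at 34.7 CPM. Unlike DHRS2, the K3Q libraries of A549 lay well above Ctr, at a log2 change of 1.05, against 0.29 for DHRS2.

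KIF1A averaged 44.5 ± 21.1 CPM in A549 WT, 44.0 ± 23.7 in K3R, 13.3 ± 1.72 in K3Q and 7.63 ± 3.01 in Ctr (SD, n = 3 each). In H1299 it averaged 37.5 ± 12.9 CPM in WT, 32.6 ± 9.98 in K3R, 15.3 ± 3.03 in K3Q and 2.00 ± 1.10 in Ctr. CRABP2 averaged 28.7 ± 11.2 CPM in H1299 WT, 26.2 ± 9.68 in K3R, 6.65 ± 1.16 in K3Q and 6.45 ± 1.30 in Ctr, so that its K3Q and Ctr levels overlapped as for DHRS2. Since these genes were found by their likeness to a gene picked on the construct contrasts, their differences between constructs are not tested here. The log2 changes of the 8 against Ctr ran from 0.44 to 2.52 for WT, 0.34 to 2.49 for K3R and -0.17 to 1.05 for K3Q in A549. In H1299 they ran from 0.84 to 4.96 for WT, 0.67 to 4.52 for K3R and 0.01 to 2.92 for K3Q.

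**Figure D5:**
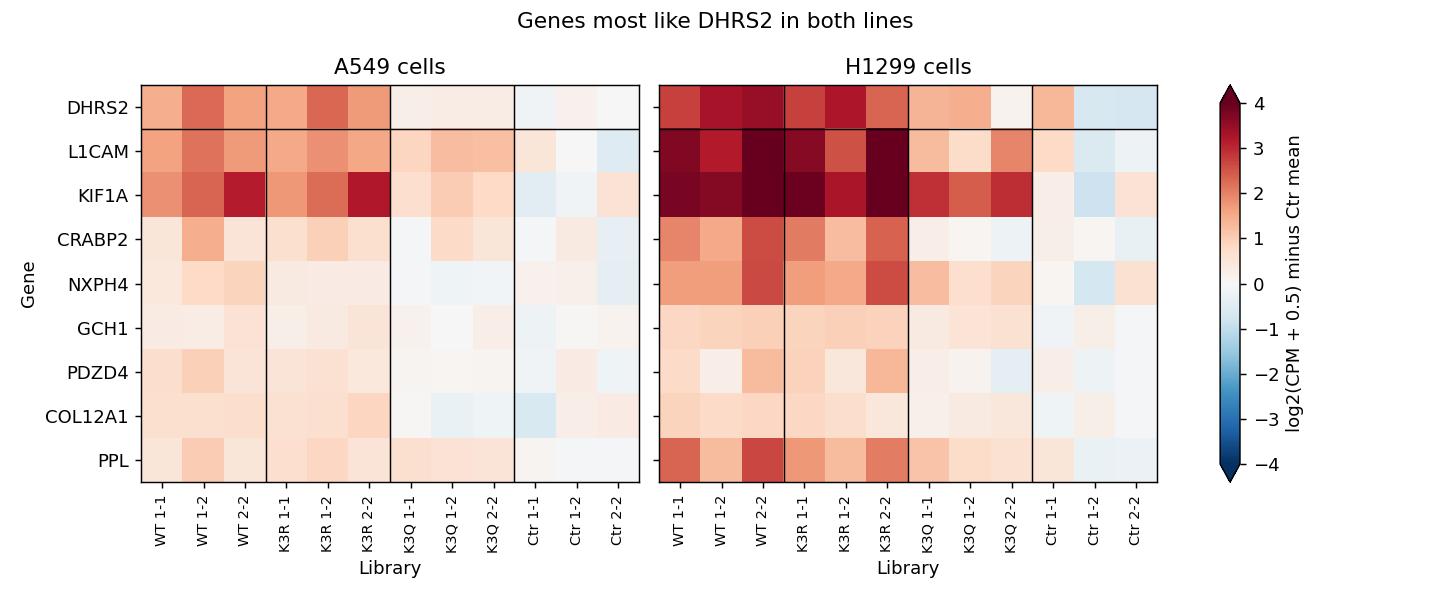
Each library's log2(CPM + 0.5) minus the mean of the Ctr libraries of its line, for DHRS2 (top row) and the 8 genes most like it in both lines, with libraries ordered WT, K3R, K3Q and Ctr in A549 (left) and H1299 (right); colours stop at 4 in each direction. The rows are reddest in the WT and K3R libraries of H1299, where L1CAM and KIF1A changed by 4.96 and 4.22 in WT against 3.10 for DHRS2.

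The genes most inverse to DHRS2 in both lines were C19orf12 (-0.82 in A549 and -0.80 in H1299), CENPBD1P1 (-0.80 and -0.75) and RP11-156P1.3 (-0.75 and -0.78). In A549 alone the highest r belonged to NFASC (0.91), NOVA2 (0.90), PDZD4 (0.90), BMP7 (0.89) and MAP3K21 (0.89). In H1299 alone it belonged to ANXA6 (0.96), ME3 (0.95), SEC31A (0.94), SFMBT2 (0.94) and PRR5 (0.93). Of the A549 genes, PDZD4, BMP7 and NFASC had an r of 0.75, 0.72 and 0.63 in H1299, against -0.12 for MAP3K21 and -0.62 for NOVA2. The 5 genes of H1299 had an r of -0.15 to 0.43 in A549. Of the 8 genes alike in both lines, 5 were matched in the RefSeq promoter table. They held 10 to 49 CpG each and none held TATAAA, whereas the DHRS2 window held 0 CpG and 1 TATAAA.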

How the data were processed

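The authors deposited raw counts per gene symbol, unnormalised, for 24 libraries. Per the submitters' processing notes, FastQC, cutadapt, STAR, featureCounts and GRCh38 were used. The sources used here give no tool versions, strand setting or annotation release. Per the labels' protocols, total RNA was made into libraries with a SMARTer kit. Gene positions are those of GENCODE 29 (GRCh38), matched on the symbol for 37702 of 59385, and promoters from RefSeq on GRCh38.p14.

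Each line was fitted on its 12 libraries with edgeR 4.0.16 in R 4.3.3, with construct and batch as terms, filterByExpr, TMM scaling and Benjamini-Hochberg adjustment over all tested genes. A gene passed at an adjusted p under 0.05. An SE is the absolute log2 change over the square root of F. Ctr libraries were compared between lines with batch as a term, and batches and biological replicates with construct as a term. Likeness used a prior count of 2, and matched differences 0.5 added counts. The fit was checked on simulated data.

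DHRS2 and the 13 gene lists were chosen with earlier results of these data known. The text names list members that passed in a comparison against Ctr (at most 5 per list, by lowest adjusted p), or the 2 with the lowest p, the genes nearest DHRS2, and the 8 genes with the highest lower r of both lines, 3 inverse ones and 5 per line.

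Replicate numbers come from the labels. Deviations from the group mean correlated between libraries of the same number at 0.134 to 0.549 in H1299, so the numbers pair the libraries there. In A549 they correlated at 0.0569 to 0.749, with 2 of 18 at 0.1 or less, both of K3Q 2-2, so the numbers do not pair all A549 libraries. Batch is contained in these correlations. Alternatives were DESeq2 1.42.0, RLE scaling, the replicate block, no batch term, no filter on low counts, batch 2 alone, biological replicate 1 summed and leaving out each library. Summing the alike A549 K3Q pair and leaving out biological replicate 2 were chosen after seeing the data. Some genes that the rule for named genes covers are not reported here.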

Additional observations from a re-analysis of the deposited data

Results flagged for a closer look

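BDH1, DHRS3 and MYB, members of the gene lists, were flagged. In the comparisons below, every matched library moved one way in A549 and the opposite way in H1299. They are not the only such genes. SFMBT2 with WT was lower than Ctr in every matched library of A549 and higher in H1299, and NOVA2 with K3R did the reverse. In no case was the difference between the lines tested. BDH1 was at -0.37 on the log2 scale for K3R against Ctr in A549 and at 1.24 in H1299, and for K3Q against Ctr at -0.71 in A549 and 0.58 in H1299. DHRS3 was at -0.44 for K3R against Ctr in A549 and at 1.42 in H1299. MYB, at 0.36 to 2.86 CPM, was at 0.72 for K3R against Ctr in A549 and at -0.33 in H1299. Groups of 3 libraries are too small for a check of single libraries that stand apart.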

How the results depend on the processing

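With 3 libraries per group and 55 to 1140 DHRS2 counts in each, the SE of the log2 changes against Ctr was 0.49 to 0.50 in H1299 and 0.21 in A549. DHRS2 was higher with WT and K3R than with Ctr in both lines under every alternative run. The alternatives reuse the libraries on which the gene was picked, so they are no independent support. Batch 2 alone gave 4.27, 3.69 and 1.73 for WT, K3R and K3Q in H1299. With the replicate block DHRS2 was at 1.83, 1.89 and 0.29 in A549 and at 3.07, 2.57 and 0.78 in H1299, and the line difference in Ctr at 1.12 (adjusted p = 0.0543). Leaving out 1 library gave 1.61 to 1.98 for WT, 1.69 to 2.03 for K3R and 0.15 to 0.34 for K3Q in A549, and 2.73 to 4.11, 2.30 to 3.69 and 0.52 to 1.95 in H1299. In A549, K3Q against WT then lay between -1.69 and -1.33, K3Q against K3R between -1.76 and -1.40 and K3R against WT between -0.15 and 0.30. In H1299 the same 3 lay between -2.65 and -1.92, -2.19 and -1.41, and -0.86 and -0.20.

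Leaving out 1 library, the line difference in Ctr ran from 0.81 to 1.96. It was 0.76 without a batch term (adjusted p = 0.245), 1.16 without the low-count filter (adjusted p = 0.000562), 1.17 with DESeq2 (adjusted p = 0.0275) and 1.97 in batch 2 (adjusted p = 0.00236). Leaving out 1 construct pair gave -0.53 to -0.28 in A549 and -0.85 to -0.27 in H1299 for 2-2 against 1-2, and 0.46 to 0.73 and -0.22 to 0.43 for 1-2 against 1-1. Without the filter, 2-2 against 1-2 was -0.41 (adjusted p = 0.0182) in A549 and -0.52 (adjusted p = 0.00218) in H1299. DESeq2 turned the H1299 batch difference to -0.18 (adjusted p = 0.881). The causes were not tested, here and for the counts that follow.

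Counts of genes passing moved more. For WT, K3R and K3Q against Ctr and K3Q against WT, A549 had 17, 19, 4 and 1 genes, and H1299 659, 528, 10 and 563. Without a batch term A549 had 3, 5, 2 and 0, and H1299 409, 330, 8 and 188. The replicate block gave 105, 88, 144 and 20 in A549 and 1585, 1392, 136 and 1946 in H1299. In A549 its numbers hardly paired K3Q 2-2, whose correlations with the libraries of that number ran from 0.0569 to 0.119. Without the low-count filter there were 296, 315, 641 and 332 in A549 and 1301, 1276, 260 and 1258 in H1299. DESeq2 called 178, 162, 154 and 56 in A549 and 1057, 921, 126 and 1123 in H1299. Batch 2 alone gave 1, 1, 1 and 0 in A549 and 90, 20, 1 and 8 in H1299. Summing the libraries of biological replicate 1 gave 1, 1, 1 and 0 in A549 and 93, 44, 1 and 25 in H1299. Without biological replicate 2 there were 374, 394, 292 and 79 in A549 and 1493, 1203, 2028 and 4033 in H1299. Summing the alike K3Q pair of A549 gave 1 for K3Q against Ctr and 0 against WT. Leaving out 1 library gave 3 to 18, 5 to 19, 1 to 14 and 0 to 0 in A549 and 245 to 495, 102 to 553, 3 to 8 and 41 to 849 in H1299. Leaving out 1 library, the line comparison gave 7478 to 9549 genes, with 7376 in batch 2 alone, 10118 with the block and 10622 without the filter. For 2-2 against 1-2, leaving out a pair gave 0 to 5500 in A549, where no filter gave 3063 and DESeq2 1805, and 433 to 3252 in H1299. For 1-2 against 1-1 it gave 4351 to 6241 in A549 and 1860 to 3240 in H1299. Of the alternative values of named genes and likenesses, 565 kept their side of the threshold or their interval, 63 lost a call, 18 gained one and 3 moved.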
